A study of Mus musculus with 6 samples.

Results

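Canonical Wnt signalling was examined in mouse embryonic stem (ES) cells with and without Tex19.1, through 10 genes chosen by symbol as components or direct targets of the pathway: Ctnnb1, Apc, Axin1, Axin2, Gsk3b, Tcf7, Tcf7l1, Lef1, Sp5 and Nkd1. Of these 10 genes, 8 were found among the 10128 genes of the authors' deposited table, and Sp5 and Nkd1 were not analysed here. RNA sequencing covered 3 libraries of Tex19.1-/- cells, which lack both working copies of Tex19.1, and 3 libraries of Tex19.1+/- cells, which keep 1. Both genotypes derive from E14Tg2a, an ES line of 129/Ola background. They were grown on gelatin in serum with leukaemia inhibitory factor-conditioned medium at passages 12 to 18. The labels do not say whether the 3 libraries of a genotype come from separate clones or cultures, so the p-values measure the spread between these libraries, which may be technical. Tex19.1 encodes a protein of germ cells, placenta and pluripotent cells that binds a ubiquitin ligase.

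The authors' deposited table gives, for each gene, a log2 fold change between the genotypes, a mean level over the libraries in CPM, a p-value and a p-value adjusted over all genes. CPM is a read count relative to the total of its library. The table holds 1 value per gene and none per library, so values of single libraries and their depth are unknown, and no overlap between the genotypes can be described. A positive fold change is read as higher in Tex19.1-/- cells, because Tex19.1, at -6.92 or 0.828% of the Tex19.1+/- level, is the lowest entry of the authors' deposited table. As this gene sets the direction, it is no independent check of the labels. A gene is called changed at an adjusted p under 0.05, and 51.7% of all genes in the authors' deposited table pass, 25.2% upward and 26.5% downward. Of 13 measured markers of naive ES cells, 7 were higher and 3 lower in Tex19.1-/- cells, and their mean levels ran between 184 and 1566 CPM in the authors' deposited table. All 11 measured endoderm markers were lower in Tex19.1-/- cells, with a median log2 fold change of -2.01 and mean levels that sum to 1125 CPM in the authors' deposited table. In bulk RNA, fewer cells of a type and less RNA per cell cannot be told apart, and the part of the endoderm difference in any Wnt value below was not tested.

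Canonical Wnt signalling acts by sparing beta-catenin, the protein product of Ctnnb1, from destruction. Without a Wnt signal, a complex built on the scaffolds axin and APC lets the kinase GSK3 mark beta-catenin for removal. When a Wnt ligand binds its receptors the complex is inhibited, and beta-catenin enters the nucleus, where it joins the DNA-binding TCF/LEF factors. In mouse ES cells the pathway favours self-renewal, largely by relieving the repression that the factor encoded by Tcf7l1 places on pluripotency genes. Axin2, Lef1, Tcf7, Sp5 and Nkd1 are themselves often raised by the pathway, and Axin2 and Nkd1 then restrain it.

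The members moved in different directions and by small amounts. In Tex19.1-/- cells Tcf7 and Tcf7l1 were higher, Axin2 and Gsk3b were lower, and Ctnnb1, Apc, Axin1 and Lef1 did not pass. The 4 of 8 members that pass stand beside 51.7% of all genes, so the share called is near the background. The 2 higher and 2 lower members stand beside backgrounds of 25.2% and 26.5%. With a size of at least 0.5 on the log2 scale also required, 0 of the 8 members were called, against 7.38% of all genes, 2.16% upward and 5.21% downward. Their median log2 fold change was -0.02, against 0.00 for all genes, and their median absolute log2 fold change was 0.13, against 0.11 for all genes. Since the authors had removed genes of low level, a member enters only with a mean above that limit.

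The 300-base windows shown lie around annotated starts of the 4 members that passed, of which Tcf7 and Axin2 moved most. Whether these starts are the ones in use in ES cells was not tested. The windows come from RefSeq on GRCm38.p6 and run from 250 bases before to 50 bases after the start. They are written 5′ to 3′ on the gene's strand. Capitals mark the core letters that TCF/LEF factors recognise, CTTTG on either strand. The windows are chr11:108920099-108920398 on the plus strand for Axin2, chr11:52282965-52283264 on the minus strand for Tcf7, chr6:72788996-72789295 on the minus strand for Tcf7l1 and chr16:38088751-38089050 on the plus strand for Gsk3b.
Axin2: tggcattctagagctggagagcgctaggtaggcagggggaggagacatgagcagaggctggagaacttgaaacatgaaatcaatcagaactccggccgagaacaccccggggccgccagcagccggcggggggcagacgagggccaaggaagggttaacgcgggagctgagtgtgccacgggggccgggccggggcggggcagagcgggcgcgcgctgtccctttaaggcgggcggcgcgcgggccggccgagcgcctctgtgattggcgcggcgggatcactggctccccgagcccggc
Tcf7: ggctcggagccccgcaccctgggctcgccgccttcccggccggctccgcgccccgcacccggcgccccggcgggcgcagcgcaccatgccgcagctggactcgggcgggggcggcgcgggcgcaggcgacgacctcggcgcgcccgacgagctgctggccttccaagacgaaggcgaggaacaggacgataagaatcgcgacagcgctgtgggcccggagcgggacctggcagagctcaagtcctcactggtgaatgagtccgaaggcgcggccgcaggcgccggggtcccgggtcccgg
Tcf7l1: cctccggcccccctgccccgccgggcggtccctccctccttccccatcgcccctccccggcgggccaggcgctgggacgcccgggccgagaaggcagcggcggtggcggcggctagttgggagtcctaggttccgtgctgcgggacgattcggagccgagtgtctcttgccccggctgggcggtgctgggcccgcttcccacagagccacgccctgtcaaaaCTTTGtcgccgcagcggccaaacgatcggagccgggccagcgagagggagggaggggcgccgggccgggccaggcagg
Gsk3b: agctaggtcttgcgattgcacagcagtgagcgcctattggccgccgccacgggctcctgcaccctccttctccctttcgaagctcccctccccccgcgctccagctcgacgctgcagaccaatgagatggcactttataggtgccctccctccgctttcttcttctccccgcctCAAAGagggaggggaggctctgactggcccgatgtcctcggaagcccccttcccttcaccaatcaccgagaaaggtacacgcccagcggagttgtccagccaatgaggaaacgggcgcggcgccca
The core occurs once in the Tcf7l1 window, 28 bases before the start, and once in the Gsk3b window, 76 bases before the start. It is in neither the Axin2 window nor the printed Tcf7 window. A further Tcf7 window, chr11:52282546-52282845 on the minus strand, is not printed and does not hold the core either. Of the 32851 RefSeq windows of this length, 53.9% hold the core on either strand, so a match is common. The longer forms CTTTGAT and CTTTGAA, each of which contains the core, occur in 8.65% of the windows. They are in 0 of the 11 windows of the 6 measured members whose windows were searched. They are in the window of Sp5, where CTTTGAT lies 104 bases before the start. A match here is a description of letters and not a bound site. A window without a match says nothing of sites outside its 300 bases, which were not searched.

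**Figure D1:**
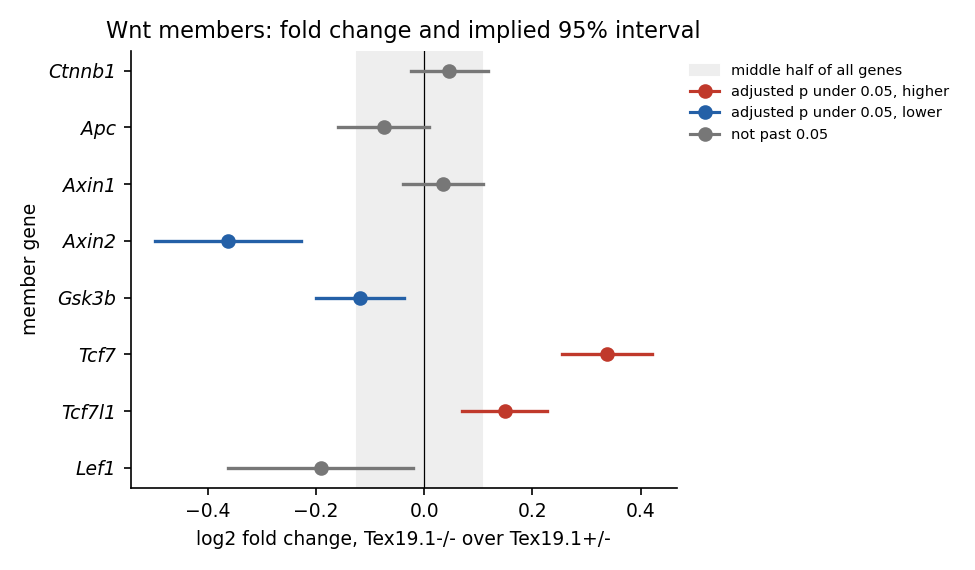
Log2 fold change of the 8 measured members, Tex19.1-/- over Tex19.1+/-, from the authors' deposited table (points), with the 95% interval implied by the deposited p-value (bars); grey shading spans the 25th to 75th percentile of all genes. Tcf7 and Tcf7l1 lie right of 0, Axin2 and Gsk3b left of it, and the bar of Lef1 is the longest.

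Ctnnb1 encodes beta-catenin, the effector that the destruction complex removes and the TCF/LEF factors bind. In the authors' deposited table it stood at 0.05 on the log2 scale (adjusted p = 0.286). A 95% interval, obtained by dividing the fold change by the normal deviate of the deposited p-value, placed its level in Tex19.1-/- cells between 98.3% and 109% of the Tex19.1+/- level. It had the highest mean of the members, 795 CPM over the libraries per the authors' deposited table. Of the 300 genes nearest to it in mean level, 227 had a larger absolute fold change. A protein that is regulated mainly by destruction is not read by its mRNA level, so these values describe the transcript only. The paralog Jup, which encodes gamma-catenin of cell junctions, rose to 114% of the Tex19.1+/- level, or 0.19 on the log2 scale per the authors' deposited table (adjusted p = 9.61e-05).

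In the destruction complex, 2 members fell and 2 did not pass. Axin1, the scaffold present in most cells, stood at 0.03 on the log2 scale in the authors' deposited table (adjusted p = 0.459), with an interval of 97.3% to 108% of the Tex19.1+/- level. Apc, the large scaffold that binds both axin and beta-catenin, had -0.07 in the authors' deposited table (adjusted p = 0.134), with an interval of 89.6% to 101%. The intervals of both exclude a change as large as that of Axin2. Gsk3b, a kinase that phosphorylates beta-catenin, was lower in Tex19.1-/- cells, at 92.1% of the Tex19.1+/- level. The authors' deposited table gives it a log2 fold change of -0.12 (adjusted p = 0.00986), and 48.3% of all genes had a larger absolute value. After removal of a trend of fold change on GC content and on length, Gsk3b stood at -0.07 and no longer passed (adjusted p = 0.152). Apc then stood at 0.0016 (adjusted p = 0.981). The paralog Gsk3a, whose product acts alongside that of Gsk3b on beta-catenin, had -0.07 in the authors' deposited table (adjusted p = 0.137).

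Axin2 had the largest change among the members. This scaffold is a feedback inhibitor whose transcription is widely used as a reading of canonical Wnt activity. It fell to 77.8% of the Tex19.1+/- level, with an interval of 70.9% to 85.3%. Its entry in the authors' deposited table is a log2 fold change of -0.36 (adjusted p = 6e-07). Of all genes 12.5% had a larger absolute fold change, and of the 300 genes nearest in mean level 56 did. Axin2 also had the lowest mean of the members, 10.2 CPM in the authors' deposited table. It lies on chromosome 11 from 108920349 to 108950783 (GRCm38, plus strand, ENSMUSG00000000142.15), the chromosome that also carries Tex19.1, whose start is at 121146143. The 20 measured genes that flank Axin2 had a median log2 fold change of -0.01, and 6 were called higher and 7 lower.

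**Figure D2:**
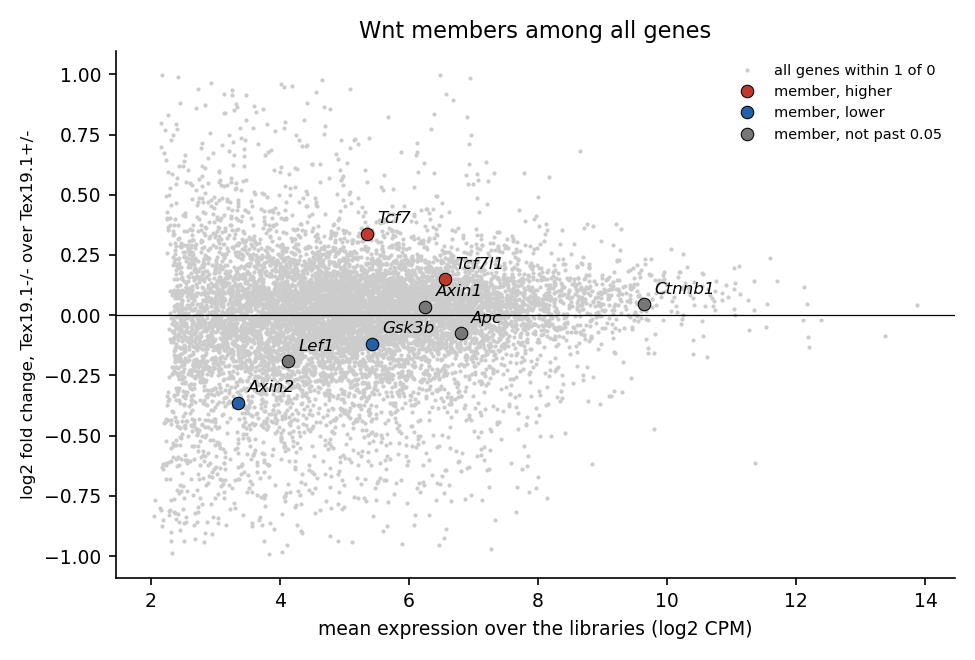
Log2 fold change, Tex19.1-/- over Tex19.1+/-, against mean expression in log2 CPM for all genes within 1 of 0 on the vertical axis (grey) and the 8 members (coloured by call). Axin2 sits at low expression near -0.36, Tcf7 near 0.34 and Ctnnb1 at the highest expression of the members, close to 0.

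Of the TCF/LEF factors, 2 were higher in Tex19.1-/- cells and 1 did not pass. Tcf7, a factor that mostly activates targets when bound to beta-catenin, rose to 126% of the Tex19.1+/- level, with an interval of 119% to 134%. The authors' deposited table puts it at 0.34 on the log2 scale (adjusted p = 1.34e-14), and 35 of the 300 genes nearest in mean level had a larger absolute value. Tcf7l1, the main repressor among these factors in ES cells, rose to 111%, with an interval of 105% to 117%. Tcf7l1 stands at 0.15 on the log2 scale in the authors' deposited table (adjusted p = 0.000691), and 96 of the 300 genes nearest in mean level had a larger absolute value. The table also has a row named Tcf3, an older name of Tcf7l1 that is now the symbol of another gene, and that row was not used. Tcf7l2 was not analysed here.

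Lef1, a factor that is often itself a Wnt target, stood at -0.19 on the log2 scale in the authors' deposited table, with a p-value of 0.0288 and an adjusted p of 0.0548. The interval ran from 77.7% to 98.6% of the Tex19.1+/- level, wholly below it, although the adjusted p misses the threshold. The standard error implied by its p-value was 0.088 on the log2 scale, against a median of 0.058 over the genes nearest in mean level. Of 299 such genes with an implied standard error, 3 had a larger one. For Axin2, of lower mean level, the implied standard error was 0.068 and 188 of its 300 nearest genes had a larger one. The estimate for Lef1 is thus less precise than that of most genes of its level. Which libraries set this spread cannot be read without values per library.

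**Figure D3:**
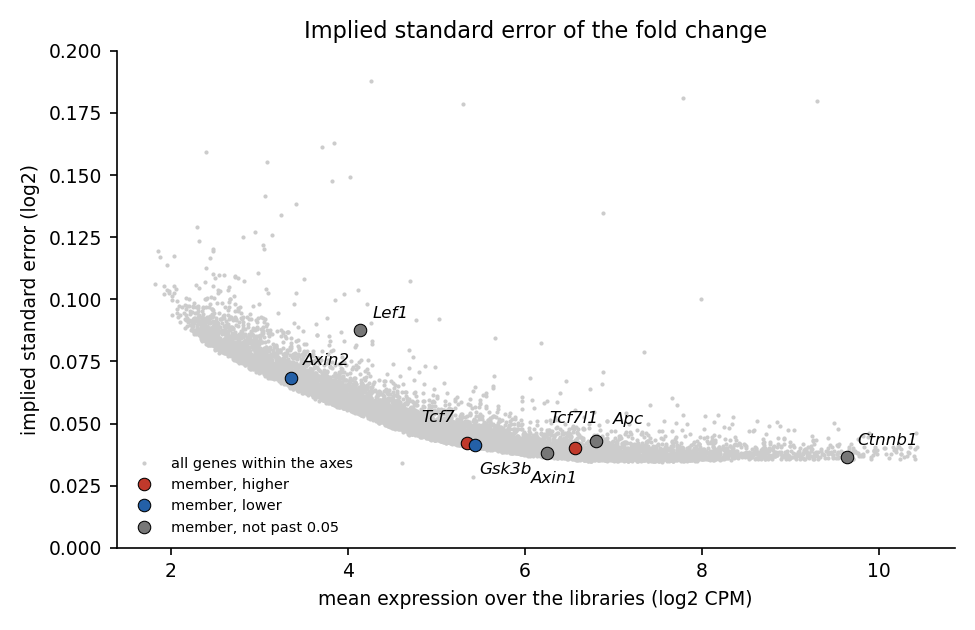
Standard error of the log2 fold change implied by the deposited p-value, against mean expression in log2 CPM, for genes within the axes (grey) and the 8 members (coloured by call). Lef1 lies above the band of genes of like expression, at 0.088, and the other 7 members lie within it.

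Levels can be compared between genes only per transcript length, so the mean CPM over all libraries was divided by the length of each gene's merged exons in GENCODE. On this scale Ctnnb1 stood first with a level of 153 CPM per kilobase. Tcf7l1 followed with a level of 24.1 CPM per kilobase, Axin1 with 19.9 and Tcf7 with 15.5. Lower levels were found for Apc with 6.93 CPM per kilobase, Gsk3b with 4.39, Lef1 with 2.0 and Axin2 with 1.85. These levels have no spread over libraries, so neighbours in the order, such as Lef1 and Axin2, cannot be said to differ. Among the 3 measured TCF/LEF genes, Tcf7l1 made up 57.9% of the summed level per kilobase, Tcf7 37.3% and Lef1 4.81%. The feedback scaffold Axin2 made up 8.52% of the level of the 2 axin genes and Axin1 91.5%, and Gsk3b made up 12.4% of that of the 2 GSK3 genes and Gsk3a 87.6%. Long untranslated ends that a cell type does not use lower a level per kilobase, and this was not corrected.

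Tcf7 lies among genes that were also mostly higher. It spans 52252371 to 52283014 on chromosome 11 (GRCm38, minus strand, ENSMUSG00000000782.15). Of the 20 measured genes that flank it, 12 were higher in Tex19.1-/- cells and 1 was lower, with a median log2 fold change of 0.14. A median at least this high was found around 1.80% of the 9153 genes with 10 measured genes on each side, in windows that overlap one another. Its neighbours include Skp1a, the ubiquitin ligase adaptor gene, at 0.40 and Ppp2ca, which encodes a catalytic subunit of protein phosphatase 2A, at 0.15, in the authors' deposited table. Both of these neighbours belong to the destruction complex list. The median of the 794 genes placed on chromosome 11 was 0.07, and 335 of them were higher and 146 lower in Tex19.1-/- cells. Over all genes, 25.2% were higher and 26.5% lower. This median was the highest of any chromosome, followed by 0.07 for X and 0.02 for chromosome 19. The part of the neighbourhood, or of the whole chromosome, in the value of Tcf7 was not tested. Around the other 7 members the flanking medians ran between -0.05 for Tcf7l1 and 0.07 for Lef1.

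**Figure D4:**
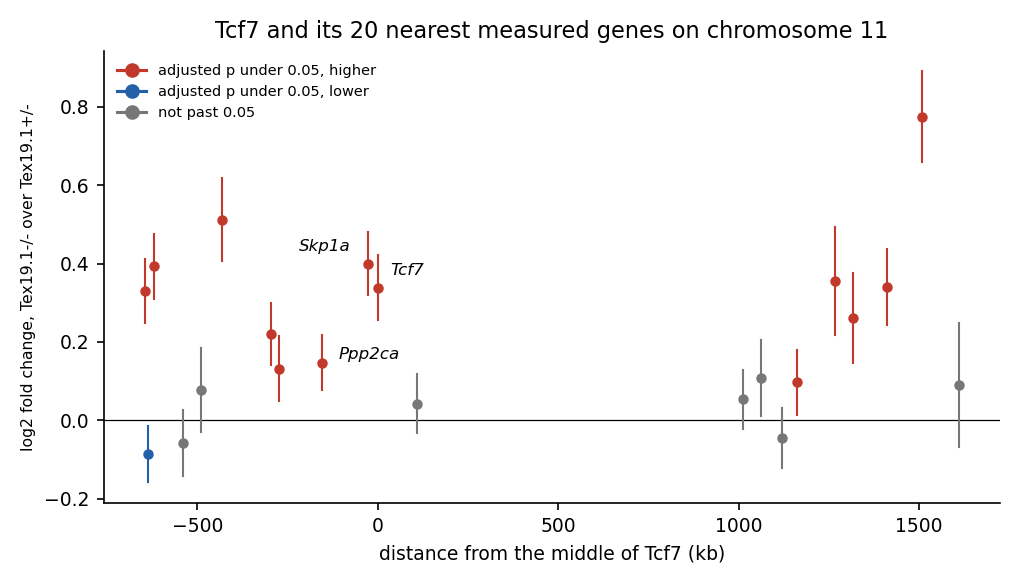
Log2 fold change, Tex19.1-/- over Tex19.1+/-, of Tcf7 and the 20 measured genes that flank it on chromosome 11, by distance from the middle of Tcf7 in kilobases (points), with the 95% interval implied by the deposited p-value (bars). Points above 0 prevail on both sides of Tcf7, and 12 of the 20 flanking genes are called higher.

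The position of the remaining members, on GRCm38, was as follows. Ctnnb1 spans 120929216 to 120960507 on chromosome 9, Gsk3b 38089001 to 38246084 on chromosome 16 and Tcf7l1 72626378 to 72789254 on chromosome 6. Lef1 spans 131110471 to 131224356 on chromosome 3, Axin1 26138688 to 26195811 on chromosome 17 and Apc 34220924 to 34322552 on chromosome 18. Exons of Axin2, Tcf7l1 and Lef1 overlap exons of antisense RNA genes in GENCODE, and those of Ctnnb1 overlap Ulk4 on the opposite strand. The strand setting of the counting is not given in the sources used here, so reads from such overlaps cannot be assigned. Tcf7 and Lef1 also give rise to shorter forms that lack the part that binds beta-catenin, and a value per gene does not separate these forms.

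The rest of the pathway was described through 10 lists of genes by role, of which 7 were counted here as the canonical branch. The list of genes repressed by Tcf7l1 was kept apart from these 7. Without the 8 members, 108 genes of the canonical lists were measured, of which 30 were higher in Tex19.1-/- cells, 34 were lower and 44 did not pass. Their median log2 fold change was 0.02, against 0.00 for all genes, and 59.3% passed, against 51.7% of all genes. Changes of at least 0.5 in size were found for 7 of these 108 genes upward and 3 downward, beside 2.16% of all genes upward and 5.21% downward. The lists went both ways, as the members did. The share called was 75% for antagonists, 64.7% for receptors, 58.8% for cytoplasmic transducers and 50% for ligands and secretion. It was 44.4% for the destruction complex, 48.5% for nuclear factors and 88.2% for reported targets. In the lists not counted among these 7, it was 71.4% for genes repressed by Tcf7l1, 70% for adhesion partners and 46.4% for planar polarity and calcium.

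**Figure D5:**
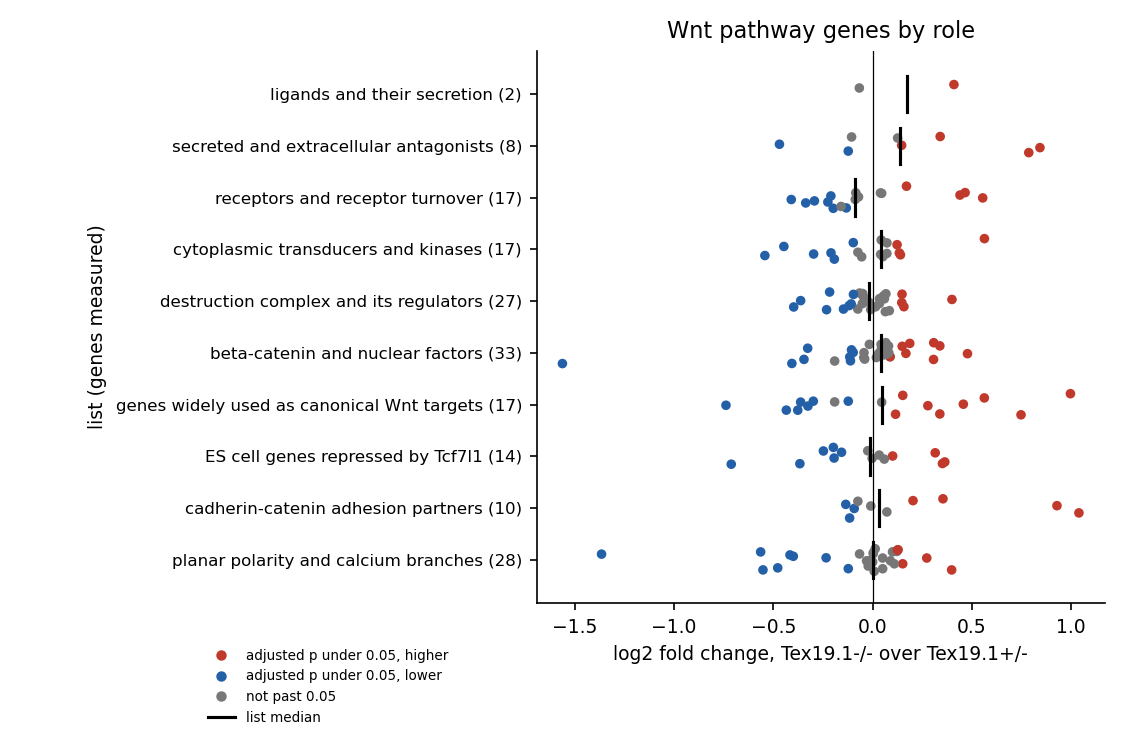
Log2 fold change, Tex19.1-/- over Tex19.1+/-, of the measured genes of each Wnt list (points, coloured by call, spread vertically for legibility), with the median of each list as a black bar. Every list median lies within 0.2 of 0, and points lie on both sides of 0 in every list.

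At the cell surface, the largest rises were in the list of secreted and extracellular antagonists, in which the proteoglycan genes were also placed. Of its 8 measured genes 4 were higher and 2 lower, with a median of 0.14. Whether the product of a listed gene restrains Wnt signalling in these cells was not tested. The secreted Wnt-binding protein gene Sfrp2 was at 0.84 and the cell-surface proteoglycan gene Gpc3 at 0.79 in the authors' deposited table. The neighbouring gene Gpc4, a second proteoglycan on the X chromosome, was at 0.34 and the membrane inhibitor gene Apcdd1 at -0.47 in the authors' deposited table. Around Gpc3 and Gpc4 the flanking medians were 0.17 and 0.24, and around Apcdd1 the median was -0.15. Only 2 of 26 listed ligand and secretion genes were measured, and 1 rose: Wls, which carries Wnt proteins to the surface, at 0.41 in the authors' deposited table. No gene of the Wnt family itself was analysed here.

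Among 17 receptors and genes of receptor turnover 4 were higher and 7 lower, with a median of -0.09. Frizzled genes, which encode the Wnt receptors, changed in opposite directions. Fzd2 was at 0.55 and Fzd7 at 0.44 in the authors' deposited table, whereas Fzd4 was at -0.41. Mesdc2, whose product helps the co-receptors fold, was at -0.21 in the authors' deposited table. Around Fzd2, also on chromosome 11, 13 of the 20 flanking genes were higher in Tex19.1-/- cells, with a median of 0.12.

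Of 17 cytoplasmic transducers and kinases 4 were higher and 6 lower, with a median of 0.04. Csnk1e, a kinase that acts on Dishevelled, the protein that passes the signal from the receptor, was at -0.54 in the authors' deposited table, or 68.6% of the Tex19.1+/- level. Frat2, which encodes a GSK3-binding protein, was at 0.56, Dact2 at -0.30 and Dixdc1 at -0.45 in the authors' deposited table. In the destruction complex list of 27 genes, members included, 4 were higher and 8 lower, with a median of -0.02. Apart from the members, the list is led by Skp1a, followed by p-value in the authors' deposited table by the phosphatase subunit genes Ppp2r5a at -0.40 and Ppp2r5d at -0.23 and the cytoskeletal linker gene Macf1 at -0.22. With the GC and length trend removed Macf1 stood at -0.09 and no longer passed (adjusted p = 0.0785).

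Of 33 genes of beta-catenin and its nuclear partners, members included, 8 were higher and 8 lower, with a median of 0.04. Sox7, an endoderm factor listed here because SOX proteins can bind beta-catenin, was at -1.56 in the authors' deposited table. It also belongs to the endoderm markers, all of which were lower. Tle3 and Tle1, which encode Groucho-type co-repressors that bind TCF/LEF factors in place of beta-catenin, were both at 0.31 in the authors' deposited table. Aes, a shorter relative not counted here as a co-repressor, was at -0.35. The other measured genes of this family, Tle6 at -0.41 (adjusted p = 1.95e-08) and Tle4 at -0.11 (adjusted p = 0.0101), were lower in the authors' deposited table. The family thus went both ways in RNA level. Its genes need not act alike, so no direction of repression is read from this.

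From a list of 38 reported canonical Wnt targets, 17 were measured, the members Axin2, Lef1 and Tcf7 included. Of these 17 genes, 8 were higher, 7 lower and 2 did not pass, with a median of 0.05. The share called was 88.2%, beside 51.7% of all genes. Their median absolute log2 fold change was 0.34, against 0.11 for all genes. As the lists were chosen with earlier results of these data known, this difference was not tested. Mycn, a proliferation factor, was at 1.00, or 199% of the Tex19.1+/- level, and the cyclin gene Ccnd1 at 0.56 in the authors' deposited table. On the lower side, the growth factor gene Bmp4 was at -0.74 and the ephrin receptor gene Ephb3 at -0.43 in the authors' deposited table. Many of these genes also answer to other signals. The 14 listed ES cell genes that Tcf7l1 represses were all measured, and 4 were higher and 6 lower, with a median of -0.01. Klf5 was at -0.71 and Tbx3 at -0.37, whereas Zfp42 was at 0.36 and Lin28a at 0.35, per the authors' deposited table. The 20 measured genes nearest to Klf5 had a median of -0.65.

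Beta-catenin also joins cadherins at cell contacts, and 4 of 10 listed adhesion partners were higher and 3 lower. The neural cadherin gene Cdh2 was at 1.04, the placental cadherin gene Cdh3 at 0.93, the junction protein gene Vcl at 0.35 and the epithelial cadherin gene Cdh1 at 0.20 in the authors' deposited table. Of 7 measured neural markers 6 were higher in Tex19.1-/- cells and 1 was lower, and their part in the value of Cdh2 was not tested. In the planar polarity and calcium branches of Wnt signalling, 5 of 28 genes were higher and 8 lower, with a median of 0.00. The 4 genes named by p-value were lower, with the transcription factor gene Nfatc2 at -1.37, the phospholipase genes Plcb4 at -0.56 and Plcb3 at -0.42, and the polarity receptor gene Ptk7 at -0.40 in the authors' deposited table.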

How the data were processed

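RNA was extracted with TRIzol and made into libraries with the TruSeq Stranded mRNA kit, per the labels' protocols. Tools named in the submitters' processing notes are edgeR, HTSeq 0.11.2, TopHat2 2.1.0 and Trim Galore 0.4.1, with the build mm10. For each of 10128 genes, the authors deposited the mean level as log2 CPM, the log2 fold change, and a raw and an adjusted p-value. The lowest deposited mean is 3.52 CPM, so lower genes were removed by the authors. Their adjusted p-values equal Benjamini-Hochberg values within 6.7e-05. A count model was planned for the case of counts; no library-level values were used here, and the authors' test stands in its place.

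Standard errors and 95% intervals were implied from the deposited p-value as the fold change over its normal deviate, and are approximate. Positions and exon lengths come from GENCODE M21 on GRCm38, the assembly mm10 names, and matched 9573 genes. The calculations were checked on simulated data (Python 3.11.15, pandas 2.3.3, scipy 1.17.1, statsmodels 0.14.6). Alternatives comprised Bonferroni adjustment, a threshold of 0.01, a minimum of 16 CPM, subtraction of the median fold change, and removal of a lowess trend (span 0.3) on GC content and longest-transcript length. Named beside the members are their measured paralogs, Tex19.1, and up to 4 genes per list with the smallest p-value past 0.05. Other named genes were picked with their values in view. The members and lists were chosen with earlier results of these data known. RefSeq windows were used for 8 of the 10 members. None was found for Axin1, and windows on chromosome 18, where Apc lies, were left out of the member search by rule.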

Additional observations from a re-analysis of the deposited data

How the results depend on the processing

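Tcf7, Ctnnb1, Apc, Axin1 and Lef1 kept their side of the threshold under all 5 alternatives, and Axin2 under the 4 that could be run for it, since it lies below 16 CPM. Over these, Tcf7 ranged from 0.33 to 0.34, Axin2 from -0.37 to -0.35, and the adjusted p of Lef1 from 0.0508 to 1. Gsk3b no longer passed under Bonferroni adjustment (-0.12, adjusted p = 1) or with the GC and length trend removed (-0.069, adjusted p = 0.152). Tcf7l1 no longer passed under Bonferroni adjustment (0.15, adjusted p = 1). Members called higher numbered 1 and lower 1 under Bonferroni adjustment, against 2 and 2. Members called lower numbered 1 with the trend removed, where Gsk3b was lost, and 1 among genes of at least 16 CPM, where Axin2 was left out. With a size limit of 0.2 in place of 0.5, 1 member was higher and 1 lower, against 0 and 0. At an adjusted p under 0.01, 1 antagonist, 5 nuclear factors and 1 adhesion partner were lower, against 2, 8 and 3. Among genes of at least 16 CPM, 0 ligand genes, 2 receptors and 5 target genes were higher, and 1 antagonist, 4 receptors and 5 nuclear factors were lower; fewer genes were tested there. The 40 other named genes were not recomputed at 16 CPM, and the trend could be removed for 39 of them, without Mesdc2. Jup lost its call under Bonferroni adjustment and Macf1 with the trend removed, and no called value changed sign under the settings run. Apc, which was not called under any of them, went from -0.075 to 0.0016 with the trend removed. No paired analysis was possible because the authors' deposited table holds no values per library, and for the same reason no replicate could be left out.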
